A study of Mus musculus with 3 samples.

Results

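The 8 interferon regulatory factor (IRF) genes Irf1, Irf2, Irf3, Irf4, Irf5, Irf7, Irf8 and Irf9 were examined for Foxp3 CUT&RUN peaks, out of 21627 protein-coding genes on the mouse autosomes and X. They were chosen as members of 1 gene family, and all peaks of both Foxp3 peak lists that touched a gene or the 5 kb beyond either of its ends were taken. The cells were mouse bone marrow-derived macrophages (BMDMs), grown in medium conditioned with M-CSF, the growth factor that drives macrophage differentiation, and fixed in 0.1% formaldehyde for 2 min. In CUT&RUN an antibody guides a nuclease to its target on chromatin, and the DNA that is cut free is sequenced. Of 3 samples in the series, 2 were made with the Foxp3 antibody FJK-16s (replicates 1 and 2). The remaining sample was made with an isotype IgG, and no values of it were available here. The series title speaks of stimulation with brain-derived danger signals, but no label assigns it to a library, and genotype, strain and animal age are likewise not given in the sources used here. Foxp3 is a forkhead factor known mainly from regulatory T cells.

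IRF proteins share a DNA-binding domain that reads GAAA-containing elements and drive the transcription of interferons and interferon-stimulated genes. Irf3, Irf5 and Irf7 rest in the cytoplasm until kinases downstream of nucleic acid sensors and Toll-like receptors phosphorylate them. Irf9 is the DNA-binding part of the complex that answers type I interferon, Irf1 is an activator induced by interferon gamma and Irf2 its antagonist, and Irf4 and Irf8 act with PU.1 in the development of myeloid and lymphoid cells, Irf8 above all in the monocyte and macrophage lineage.

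Replicate 1 held 33294105 fragments and 556535 peaks, and replicate 2 held 34898401 fragments and 95135 peaks, so that replicate 1 listed 5.85 times as many sites. Peaks were called by the authors in each library without a control, and the smallest pileup listed was 10 fragments in replicate 1 and 13 in replicate 2. Fold enrichment is the deposited ratio of the signal over a summit to the background of the same library. Its median over all peaks was 4.92 in replicate 1 and 3.99 in replicate 2. No control value stands beside any peak below. The labels do not say that the replicates were separate cultures, so the spread between them may be technical. Peaks of the replicates that overlap by at least 50% of both lengths are called a shared pair, and 63.5% of all protein-coding genes had one. Shared pairs lay at 5 of 8 macrophage, 3 of 5 T cell, 3 of 4 B cell, 2 of 3 dendritic cell and 1 of 4 neutrophil marker genes. These peaks do not measure expression and so do not check the cell type. Distances are given from the outermost annotated start, which is the outer end of the gene.

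The sequences before 4 of the IRF starts are shown first, ranging from touched by peaks of both replicates (Irf1) to touched by none (Irf7). They are RefSeq sequences of the GRCm38.p6 assembly, whose coordinates are those of mm10, read 5′ to 3′ on the coding strand up to the first base of the gene. Capitals mark matches to any of 8 searched motifs, which are described after the coverage of the starts. The stretches are chr11:53769764-53770013 (plus strand) for Irf1, chr8:120736108-120736357 (plus strand) for Irf8, chr8:46739495-46739744 (plus strand) for Irf2 and chr7:141266500-141266674 (minus strand) for Irf7.
Irf1: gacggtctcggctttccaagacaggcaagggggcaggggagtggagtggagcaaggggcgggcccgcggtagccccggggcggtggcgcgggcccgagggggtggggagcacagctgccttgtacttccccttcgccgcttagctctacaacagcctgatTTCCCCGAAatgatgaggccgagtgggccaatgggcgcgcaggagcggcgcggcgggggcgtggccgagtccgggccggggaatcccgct
Irf8: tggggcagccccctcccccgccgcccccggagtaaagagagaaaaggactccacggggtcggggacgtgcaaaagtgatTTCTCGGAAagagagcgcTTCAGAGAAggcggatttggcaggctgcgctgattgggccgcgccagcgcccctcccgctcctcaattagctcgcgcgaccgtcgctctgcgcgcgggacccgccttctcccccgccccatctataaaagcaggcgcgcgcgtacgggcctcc
Irf2: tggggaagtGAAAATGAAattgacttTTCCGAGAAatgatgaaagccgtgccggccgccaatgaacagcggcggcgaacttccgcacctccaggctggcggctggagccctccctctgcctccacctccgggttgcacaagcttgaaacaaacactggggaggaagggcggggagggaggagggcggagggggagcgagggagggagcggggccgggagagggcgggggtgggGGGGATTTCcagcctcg
Irf7: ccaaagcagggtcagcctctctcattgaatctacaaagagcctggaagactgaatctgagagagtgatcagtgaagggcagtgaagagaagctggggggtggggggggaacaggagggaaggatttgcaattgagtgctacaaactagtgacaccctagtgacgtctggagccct

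Irf1 carried the pair of peaks with the fullest overlap of the 12 pairs described here. The gene (gene ID 16362) lies on chromosome 11, positions 53770014 to 53778374, plus strand. Its start lay under a peak in each replicate, chr11:53769824-53770644 in the first and chr11:53769809-53770618 in the other, and their overlap of 795 bp was 96.8% and 98.1% of the respective lengths. The summit of replicate 1 held 78 fragments (exact Poisson 95% interval 61.7 to 97.3) and that of replicate 2 held 49 (36.3 to 64.8). Fold enrichment was 8.80 and 6.57, a mean of 7.69 ± 1.58 (SD, n = 2). The peaks covered nearly the same bases while the summits lay 378 bp apart, 329 bp inside the gene in replicate 1 and 49 bp before the start in replicate 2. A second pair inside the gene, with summits 5732 and 5653 bp from the start, overlapped by only 46 bp and had fold enrichments of 5.27 and 4.20. No other gene lay within the window of Irf1, so both pairs belong to its own surroundings. The other 4 replicate 1 peaks had fold enrichments from 3.81 to 5.74 and no partner.

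Irf2, the antagonist of Irf1, is by far the longest of the 8 genes at 108 kb (gene ID 16363, chromosome 8, 46739745 to 46847458, plus strand). Replicate 1 had 40 peaks over it and replicate 2 had 3. The strongest replicate 1 peak of all 8 genes lay 65114 bp inside Irf2 with 109 fragments and a fold of 22.9, higher than or equal to 99.8% of all replicate 1 peaks. A further replicate 1 peak, 357 bp before the start, had 116 fragments and a fold of 17.4. Neither had any partner in replicate 2, where the nearest peak to the bases printed above began 658 bp downstream of them. Replicate 2 instead had a broad peak of 1185 bp at 46740402 to 46741586, with its summit 1138 bp inside the gene, 38 fragments and a fold of 5.35. It enclosed a replicate 1 peak of 545 bp with a fold of 7.85, which filled 46.0% of it and so missed the 50% asked of a shared pair. The 1 shared pair was weak, with summits 3 bp apart at 30114 and 30111 bp from the start, pileups of 16 and 19 fragments and folds of 4.50 and 3.93 (mean 4.21 ± 0.403, SD, n = 2). It lay within 1 kb of the noncoding gene Gm31172, and the peak before the start touched another, Gm16675. The remaining replicate 2 peak, 7224 bp from the start, had a fold of 2.95 and no partner.

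Among the factors activated by phosphorylation, Irf3 stood out by its lack of replicate 2 peaks. Irf3 (gene ID 54131, chromosome 7, 44997648 to 45002848, plus strand) had 6 peaks in replicate 1 and 0 in replicate 2, whose nearest peak lay 11026 bp from the bases before its start. The replicate 1 peaks had fold enrichments from 2.37 to 8.71. The strongest lay inside the gene, 3019 bp from the start, with 95 fragments. The 3 beyond the gene lay over Scaf1, and the peak before the start (39 fragments, fold 4.34) lay over the neighbour Bcl2l12. The local background term, taken as the fragments plus 1, divided by the fold, was high here. With 150 fragments in Scaf1 and a fold of 8.61 it was 17.5, whereas the median term of replicate 1 peaks was 3.78.

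Irf5 (gene ID 27056, chromosome 6, 29526130 to 29541869, plus strand), a mediator of Toll-like receptor signals in macrophages, had 13 peaks in replicate 1 and 3 in replicate 2. Its shared pair lay near the start, at chr6:29526305-29527246 in replicate 1 and chr6:29526498-29527102 in replicate 2. Pileups were 90 fragments (exact Poisson 95% interval 72.4 to 111) and 46 (33.7 to 61.4), with folds of 10.1 and 5.53 (mean 7.82 ± 3.24, SD, n = 2). The replicate 2 peak lay wholly within the replicate 1 peak. The strongest replicate 2 peak of Irf5, with a fold of 6.09 and its summit 9224 bp from the start, covered a weaker replicate 1 peak with a fold of 4.24. That was the only overlapping pair of the family in which replicate 2 had the higher fold. The strongest replicate 1 peak of the gene, with 119 fragments and a fold of 12.2 at 9840 bp, began shortly after the end of this pair and had no partner. The third replicate 2 peak, 10601 bp from the start with a fold of 3.17, also stood alone.

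Irf7, the amplifier of type I interferon production, is the shortest of the genes at 3317 bp (gene ID 54123, chromosome 7, 141263183 to 141266499, minus strand). It had 7 peaks in replicate 1 and 3 in replicate 2, and each replicate 2 peak overlapped a replicate 1 peak. The only shared pair, with folds of 6.18 and 4.02, lay in the neighbouring gene Phrf1. A second pair, with folds of 6.82 and 4.98, lay in the neighbour Cdhr5 on the other side. The third lay inside Irf7 itself, 579 bp before its far end in replicate 2, with 69 and 23 fragments and folds of 7.69 and 2.86 (mean 5.28 ± 3.42, SD, n = 2). The replicate 2 fold of that pair was among the lowest 3.41% of its list. The 250 bases before its listed start held no peak in either replicate, and the nearest peaks were 805 bp away in replicate 1 and 2484 bp away in replicate 2. Replicate 1 alone had the strongest peak of this window, 2340 bp upstream of the gene with 79 fragments and a fold of 9.18.

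Irf9 (gene ID 16391, chromosome 14, 55603985 to 55610030, plus strand) had 5 peaks in replicate 1 and 1 in replicate 2, none of them overlapping. The replicate 2 peak had its summit 242 bp inside the gene with 18 fragments and a fold of 2.74, the lowest of all 17 replicate 2 peaks described here. Replicate 1 had no peak within 1 kb of the start. Its strongest, with folds of 8.32 and 8.17, lay 4023 and 3637 bp inside the gene, and 2 others lay upstream over Rnf31.

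The lymphoid and myeloid regulators Irf4 and Irf8 differed in where their replicate 2 peaks lay. Irf4 (gene ID 16364, chromosome 13, 30749233 to 30766981, plus strand) had 11 peaks in replicate 1 and 1 in replicate 2. Replicate 1 had its strongest peaks near the start, with folds of 9.54 and 10.8 at 63 bp before and 1360 bp after it, and replicate 2 had none there. The single replicate 2 peak lay towards the far end, 16736 bp from the start, with 16 fragments and a fold of 3.34. It formed a shared pair with a replicate 1 peak of 34 fragments and a fold of 9.26 (mean 6.30 ± 4.19, SD, n = 2).

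Irf8 (gene ID 15900, chromosome 8, 120736358 to 120756694, plus strand) had 17 peaks in replicate 1 and 4 in replicate 2, and none of them met the rule for a shared pair. Just before the start, replicate 1 had a peak at chr8:120735727-120736023 and replicate 2 a broader peak at chr8:120735649-120736447. The replicate 1 peak lay wholly inside the replicate 2 peak but filled only 37.2% of it. Pileups were 69 fragments (exact Poisson 95% interval 53.7 to 87.3) and 28 (18.6 to 40.5), and folds were 13.3 and 4.32 (mean 8.81 ± 6.35, SD, n = 2). The replicate 2 peak ran over the start and covered all 250 bases before it, while the replicate 1 peak ended 85 bp ahead of those bases. Near the far end, a pair with summits 17288 and 17017 bp from the start overlapped by 158 bp, with folds of 7.29 and 4.23. The other 2 replicate 2 peaks, 14472 and 22767 bp from the start, had folds of 3.76 and 4.21 and no partner. Irf8 had the densest replicate 1 peaks of the family, 0.560 per kb, at or above 92.9% of all protein-coding genes.

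**Figure D1:**
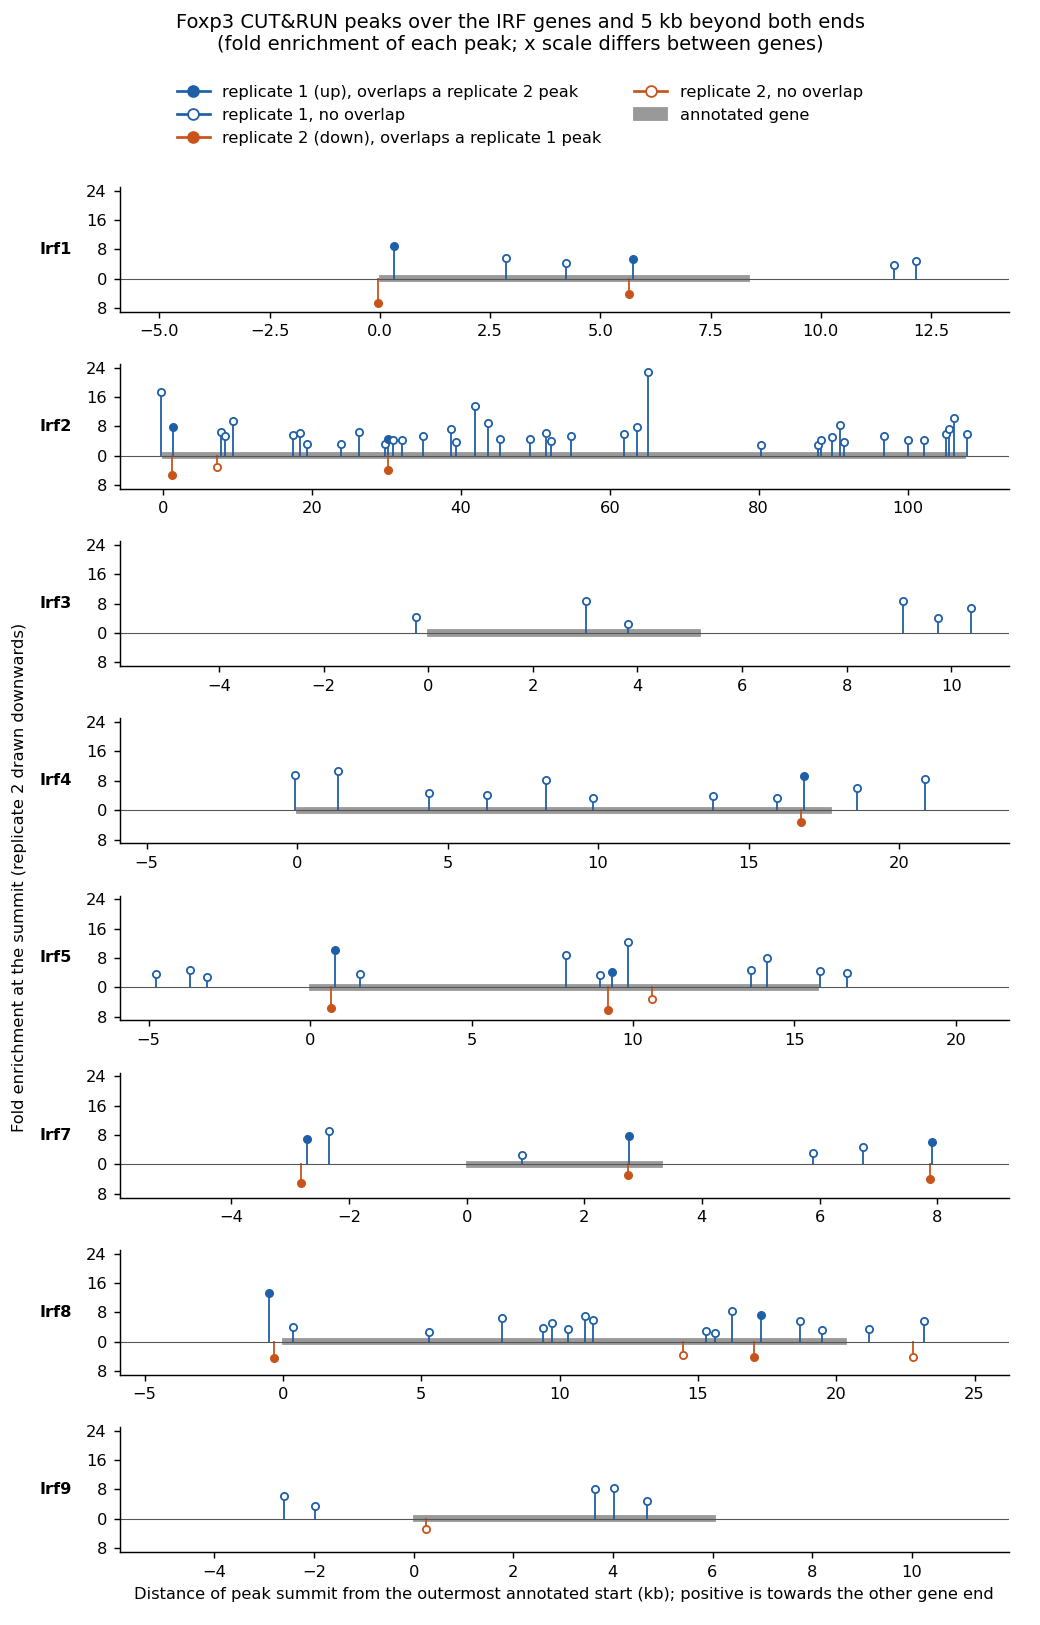
Each panel shows 1 gene as a grey bar with the distance of every peak summit from the outermost annotated start on the x axis (kb) and fold enrichment on the y axis, replicate 1 upwards in blue and replicate 2 downwards in orange; filled circles overlap a peak of the other replicate. Replicate 2 contributes 17 peaks against 105 of replicate 1, none of them at Irf3, and the tallest replicate 1 peak, in Irf2, has no partner.

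Over all 8 genes and their flanks (264 kb), replicate 1 had 105 peaks and replicate 2 had 17. Folds ran from 2.31 to 22.9 in replicate 1 (median 5.29) and from 2.74 to 6.57 in replicate 2 (median 4.20). A peak of replicate 1 was found at 8 of 8 genes (background 96.6% of all protein-coding genes) and a peak of replicate 2 at 7 of 8 (83.0%). Pairs overlapping by at least 1 bp lay at 6 of 8 genes (75.9%), and shared pairs at 5 of 8 (63.5%; exact 95% interval of the IRF share 24.5 to 91.5%). Each of these counts lay within 1 gene of what the background share gives for 8 genes, so they show no difference between the family and other genes. Without Irf7, whose shared pair lies in Phrf1, 4 of the 8 genes had a shared pair inside their own span, next to 55.7% of all protein-coding genes. The longer a gene, the more often a shared pair touched it: the background was 43.3% for genes under 10 kb, where Irf1 and Irf7 but not Irf3 and Irf9 had a pair, 65.4% for genes of 10 to 30 kb, where Irf4 and Irf5 but not Irf8 had a pair, and 82.6% for longer genes such as Irf2.

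By median fold, the peaks of the 12 overlapping pairs were stronger than those without a partner, though single values of the 2 sets mixed. Replicate 1 peaks in a pair had a median fold of 7.49 against 4.81 for the rest, and replicate 2 peaks 4.27 against 3.17 for the rest. Most of the strongest replicate 1 peaks still stood alone. Of 23 replicate 1 peaks with a fold of at least 8, 4 overlapped a replicate 2 peak (17.4%), next to 27.4% of all replicate 1 peaks of that strength. Of the 17 replicate 2 peaks, 12 overlapped a replicate 1 peak (70.6%, exact 95% interval 44.0 to 89.7%), next to 53.8% of all replicate 2 peaks, which lies inside that interval. Shared pairs took 5 of the 17 (29.4%), next to 32.9% of the whole list.

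**Figure D2:**
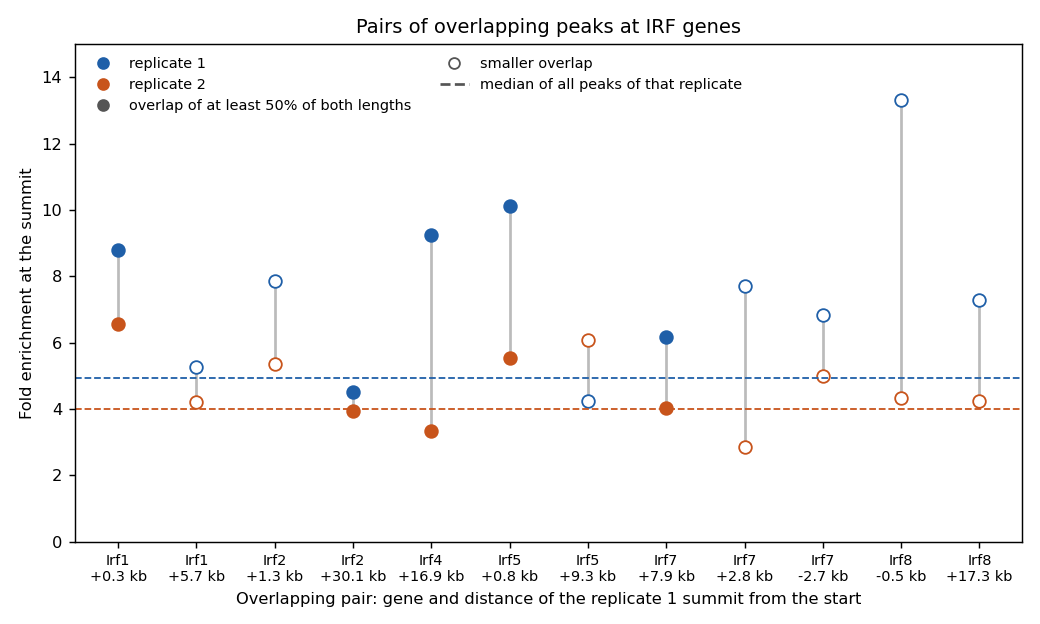
Fold enrichment (y axis) in replicate 1 (blue) and replicate 2 (orange) for the 12 overlapping pairs, labelled by gene and distance of the replicate 1 summit from the start; filled points are shared pairs and dashed lines are the medians of all peaks, 4.92 and 3.99. Replicate 1 is higher in every pair but the second of Irf5, and the gap is widest at the Irf8 start, 13.3 against 4.32.

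Among the 13724 protein-coding genes with a shared pair, the strongest shared pair of the IRF genes ranked in the middle or low. By the mean percentile of its folds, Irf1 was at or above 55.9% of these genes and Irf5 at or above 50.6%, whereas Irf7 reached 12.7%, Irf4 9.87% and Irf2 5.46%. The median of all these genes was a fold of 11.6 in replicate 1 and 5.50 in replicate 2. Irf1 stood higher in replicate 2 (72.7%) than in replicate 1 (29.2%), and Irf4 lower in replicate 2 (4.42%) than in replicate 1 (32.6%). In order of mean fold the pairs stood as Irf5 (7.82), Irf1 (7.69), Irf4 (6.30), Irf7 (5.10) and Irf2 (4.21). The SDs, between 0.403 and 4.19 with 2 replicates, include the general difference in fold between the libraries. They therefore do not measure how far the genes differ. Of the neighbours in this order, only Irf7 and Irf2 stood the same way in both replicates. Their folds were 6.18 against 4.50 in replicate 1 and 4.02 against 3.93 in replicate 2, and the difference was not tested.

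Peak density per kb, which allows for gene length, ranged from 0.312 at Irf9 to 0.560 at Irf8 in replicate 1, where the median of all genes was 0.306. All 8 genes thus lay above that median, at percentiles from 51.0 to 92.9. In replicate 2 it ranged from 0 at Irf3 and 0.0255 at Irf2 to 0.225 at Irf7, around a median of 0.0616 over all genes. The high value of Irf7, at the 97.6th percentile, rests on 3 peaks in a window of 13.3 kb, of which 2 lie over neighbours.

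At the gene ends, 6 of 8 genes had peaks of both replicates within 1 kb of an end (background 62.2%). At the outermost start itself, replicate 1 had a peak within 1 kb in 7 of 8 genes (79.2%), replicate 2 in 5 of 8 (58.1%) and both in 4 of 8 (56.6%), namely Irf1, Irf2, Irf5 and Irf8. Irf3, Irf4 and Irf7 had one in replicate 1 alone and Irf9 in replicate 2 alone. At Irf2 the peaks of the replicates within that distance did not overlap each other. This count also moved with gene length. The background was 40.9% for genes under 10 kb (1 of 4 members, Irf1), 60.1% for genes of 10 to 30 kb (2 of 3, Irf5 and Irf8) and 70.1% for genes over 30 kb (1 of 1, Irf2).

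The promoter table lists 11 starts for the 8 genes, some of them inside the gene. The only start it lists for Irf5 is position 29526625, inside the gene, and that for Irf7 is 141266424, slightly inside its outer end. Within the 250 bases before each of these 11 starts, replicate 1 had a peak at 6 (background 56.5% of 21044 such windows), replicate 2 at 5 (43.8%) and both at 3 (38.5%). The 3 were both starts of Irf1 and the inner start of Irf5. At the upstream start of Irf1, 190 of the 250 bases lay under the replicate 1 peak and 205 under the replicate 2 peak. At the inner start of Irf5 these were 250 and 127 bases, from chr6:29526375-29526624, which lies within the gene, while the peaks of its shared pair begin downstream of the outermost start. The Irf3, Irf4 and Irf2 starts had 196, 161 and 26 bases under a replicate 1 peak and 0 in replicate 2, and the upstream start of Irf8 had 250 in replicate 2 and 0 in replicate 1. Irf7, the upstream start of Irf9 and the inner start of Irf8 had 0 in both, and the inner start of Irf9 had 74 in replicate 2.

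At the IRF starts, coverage by replicate 2 moved with base composition. G+C content was 67.2 to 74.4% at the 4 IRF starts with the most bases under a replicate 2 peak (the upstream start of Irf8, both of Irf1, and the inner start of Irf5) and 53.6 to 65.2% at the other 7. The inner start of Irf9, at 53.6%, was the only one of those 7 with a replicate 2 peak. Replicate 1 followed this order less closely. It covered the starts at 71.2% and above, but 0 bases at the upstream start of Irf8 (67.2%). At Irf4 (63.6%) and Irf3 (58.8%) it covered 161 and 196 bases. Over all 21044 windows coverage rose with G+C content in both replicates. From the fifth with the lowest G+C content to the fifth with the highest, the share of windows with a replicate 1 peak went from 8.79% to 93.3%, and that with a replicate 2 peak from 3.16% to 90.3%. For peaks of both replicates it went from 1.59% to 85.5%. Its part in which IRF starts carried peaks was not tested.

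**Figure D3:**
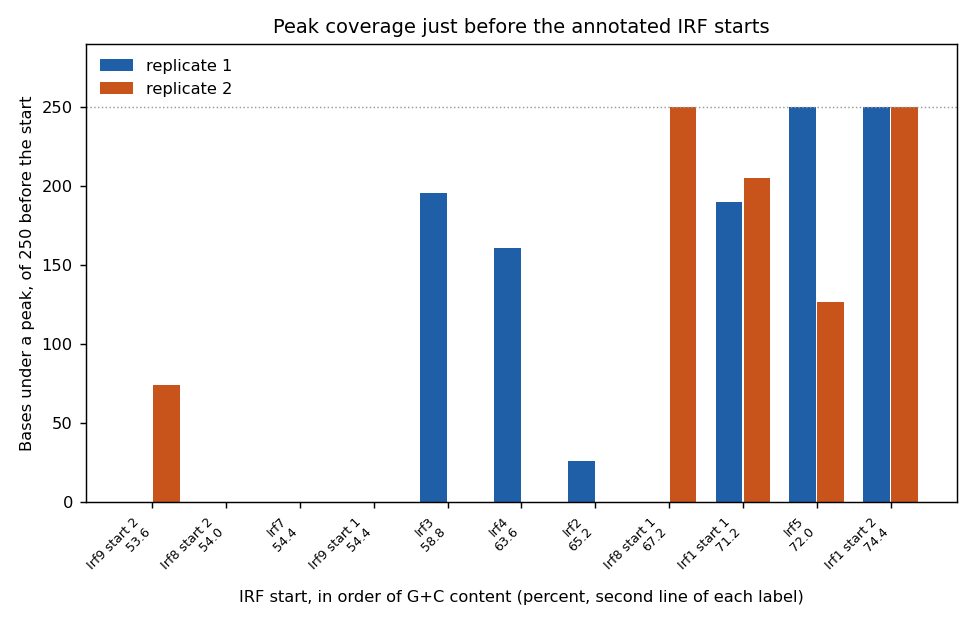
Bases under a peak (y axis, of 250 before the start) in replicate 1 (blue) and replicate 2 (orange) at the 11 IRF starts of the promoter table, in order of their G+C content, which is given in percent under each name; start 1 is the upstream and start 2 the inner start of a gene with both, and the start of Irf5 lies inside the gene. The starts at 71.2% and above have both bars, and those of Irf7, Irf8 (inner) and Irf9 (upstream), at 54.0 to 54.4%, have none.

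Of the motifs searched on both strands of these windows, the gamma-activated site word TTCNNNGAA was the most frequent, at 3 of the 11 IRF windows (upstream starts of Irf1 and Irf8, and Irf2). It occurs in 6.64% of all windows, and in 4.31% of the 8112 windows under peaks of both replicates. In Irf1 it reads TTCCCCGAA at 53769924 to 53769932, 90 bp before the start, and lies under the peaks of both replicates. The Irf8 window holds 2 matches, TTCTCGGAA from 120736187 to 120736195 and TTCAGAGAA from 120736205 to 120736213, both under the replicate 2 peak alone. Irf1 and Irf8 are both known as genes induced by interferon gamma. Irf2 holds TTCCGAGAA under no peak, the interferon-stimulated response word GAAANNGAA (6.90% of all windows) as GAAAATGAA under the replicate 1 peak alone, and the NF-kappaB word GGGNNTTTC (3.71%) as GGGGATTTC under none. No 2 of these matches overlapped.

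The forkhead word GTAAACA, which occurs in 2.64% of all windows and 1.38% of those under peaks of both replicates, was found in 0 of the 11 IRF windows. The TTTG repeat word TTTGTTTG (2.01%), the PU.1 word GAGGAAGT (2.25%), the Ets word CCGGAAGT (3.83%) and the AP-1 words TGACTCA or TGAGTCA (4.09%) were likewise in none of the 11. These counts concern the words as written, in the letters of the 250-base windows alone. Other forms of the forkhead and other motifs were not searched, so the windows may hold them.

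The other genes of the pathway were taken from a list of 72 genes in 5 groups by role. A shared pair lay at 52 of the 72 (72.2%, exact 95% interval 60.4 to 82.1%; 63.5% of all genes), and the interval of every group spanned the share of all genes. Interferon receptors and their signal transducers had one at 10 of 11 genes (90.9%), among them the kinase gene Jak1 with folds of 17.3 and 7.26 and the type I receptor chain Ifnar1 with 20.2 and 5.69. The Jak1 and Ifnar1 pairs lay within 0.5 kb of the start. DNA-binding partners and coactivators of IRF proteins also had 10 of 11, led by the acetyltransferase genes Crebbp (21.0 and 6.90) and Ep300 (11.4 and 7.20) and by Batf (13.7 and 5.70), the partner of Irf4 and Irf8 at composite elements. Spi1, which encodes PU.1, had a pair with folds of 6.78 and 4.99, and was named after its values were seen.

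Kinases and regulators of IRF proteins had a shared pair at 10 of 12 genes (83.3%). They were led by Chuk (17.3 and 8.48), an IkappaB kinase, by Tank (14.8 and 9.82), an adaptor of Tbk1, and by Irf2bp2 (20.6 and 6.70), a corepressor that binds Irf2. The Irf2bp2 pair lay beyond the far end of its gene, with summits 9541 and 9512 bp from the start. Trim21 had no replicate 2 peak. Tbk1, the kinase that phosphorylates Irf3, was named after its values were seen. It had folds of 28.2 and 6.40 at its start, within 1 kb of the neighbour Xpot. The Irf3 gene itself had no replicate 2 peak at all. Median windows of these 3 groups were 35.5, 43.4 and 37.2 kb, longer than the 27.3 kb of all genes.

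Sensors and adaptors upstream of IRF activation had a shared pair at 9 of 16 genes (56.2%). Traf6 (16.4 and 7.25) and Tlr9 (11.0 and 5.42) led with the DNA sensor gene Cgas (20.6 and 7.69), whose pair lies upstream, beside Mto1. Tlr4 and Tlr7 had no replicate 2 peak. Interferons and target genes had a shared pair at 13 of 22 genes (59.1%), led by Ifit2 (8.73 and 5.89), the class II transactivator gene Ciita (6.14 and 5.63) and Ifit1 (7.14 and 4.91). Ifnb1, Cxcl10, Gbp2 and Ifi204 had no replicate 2 peak. Psmb9 and Tap1 count the same pair between them.

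At the starts, target genes lay lowest: peaks of both replicates were within 1 kb of the start at 6 of 16 genes with a known start (37.5%), against 8 of 9 receptor and transducer genes and 7 of 8 partner genes (56.6% of all genes). Sensors and adaptors had 9 of 12, and kinases and regulators 6 of 10. Target genes also had the shortest median window of the 5 groups, 19.4 kb against 27.3 kb for all genes. The background for genes under 10 kb was 40.9%. Median G+C content before the starts was lowest in the target genes, and was 61.2% for the receptors and transducers and 69.8% for the partners, against 64.4% for the IRF genes and 55.6% for all genes. The parts of gene length and G+C content in these shares were not tested, and no test of the difference between groups was made.

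**Figure D4:**
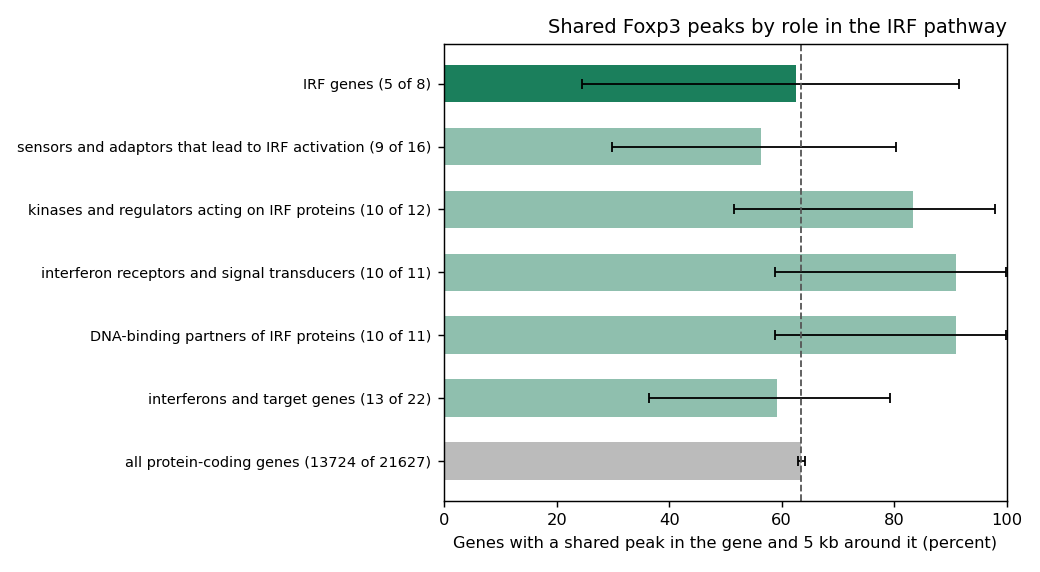
Percent of genes with a shared pair (x axis) for the IRF genes, the 5 pathway groups and all protein-coding genes, with exact 95% binomial intervals as error bars and the share of all genes (63.5%) as a dashed line. All 6 intervals of the lists span the dashed line, that of the IRF genes from 24.5 to 91.5%.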

How the data were processed

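The submitters' processing notes name CASAVA 1.4 and the mm10 build. The sources used here name no aligner. The authors, per the file headers, called peaks with MACS 2.1.1.20160309 on each library alone, in paired-end mode, without a control, at a q-value cutoff of 0.01 and with all duplicates kept, so sites released by any antibody, and copies of 1 amplified fragment, can count as peaks. The deposited pileup is a signal, the whole number of fragments over the summit. The deposited fold enrichment is a ratio to the background of the same library, genome-wide or over 10000 bp. The authors' −log10 q-values served only for stricter peak sets.

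Gene spans came from RefSeq GRCm38.p6. All 8 members matched by symbol. Strand and starts came from the RefSeq promoter table, which covers 17273 of the 21627 genes. It gives no exons, so exon and intron were not told apart. Peaks were intersected with genes in Python 3.11.15 (pandas 2.3.3, numpy 2.4.6, scipy 1.17.1), and the overlap code was tested on simulated peaks. With 1 group and no control values, no test between groups was made. Counts are read against the share of all protein-coding genes. Exact binomial (Clopper-Pearson) and Poisson intervals cover counting error at most. Since duplicates were kept, the fragments over a summit may not be independent, and the Poisson intervals may be too narrow. The 8 members and the pathway list were chosen with earlier results of these data known. Of the pathway list, Rigi and Tasl were not matched by those names, and Rigi entered as Ddx58. The text names all members, neighbours that hold their peaks, the 3 genes of each pathway group with the strongest shared pair and up to 4 of each group without a replicate 2 peak; 1 gene that this rule names is not reported here. Stricter peaks, other overlaps, flanks and windows, and each replicate alone were tried as alternatives.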

Additional observations from a re-analysis of the deposited data

How the results depend on the processing

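Alternatives were stricter peaks (−log10 q of at least 5), replicate 1 restricted to as many peaks as replicate 2, overlaps of 1 bp or 80%, other flanks and end windows, and each replicate alone. The IRF genes with a shared pair fell from 5 to 3 when the strongest replicate 1 peaks by fold were used, losing Irf2 and Irf7, while pathway genes fell from 52 to 39 and all genes from 13724 to 10885 (50.3%). At an overlap of 80% the IRF genes fell to 1, Irf1, the pathway list fell from 52 to 22 genes and all genes from 13724 to 6087. With 1 replicate left out, any peak of the other counts, which gave 7 to 8 IRF genes, 65 to 72 pathway genes and 17940 to 20888 of all genes. The 6 IRF genes with peaks of both replicates at an end fell to 3 with a window of 500 bp, and were 7 with either replicate alone. The share of all protein-coding genes at an end was not taken under these alternatives, so these counts are not read as a trait of the family. All other alternatives kept each count within 1.5 times its value. Of the alternatives that kept both replicates, Irf1 had a shared pair under all 7, and Irf3 and Irf9 under none. No pileup under 13 fragments was listed in replicate 2, and a missing peak there does not by itself show a lack of binding. No paired analysis was possible because the only group with values has 2 replicates and no second group to pair them with.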
